A study of Mus musculus with 6 samples.

Results

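Respiratory complex I, the NADH dehydrogenase of the inner mitochondrial membrane, was followed through its nuclear genes, taken as all rows of the count table whose symbol starts with Nduf. The rule found 45 of 24421 genes, made up of 36 subunit genes, 7 assembly factor genes (Ndufaf1 to Ndufaf7), and Ndufa4 with its paralog Ndufa4l2. The cells were Lin-CD117+ bone marrow cells of CByB6F1 mice, a hybrid strain, sorted for absence of lineage antigens and presence of the KIT receptor, which selects hematopoietic stem and progenitor cells. The groups were 3 RUX-treated pools (pools 4, 5 and 6), from mice given the JAK1 and JAK2 inhibitor ruxolitinib, and 3 untreated pools (pools 1, 2 and 3). A pool held cells of 2 to 3 mice of its group, all female and 2 to 5 months old, and no genotype other than the strain was named. The sources used here do not give the dose, route or duration of the drug. RUX values follow the order of pools 4, 5 and 6, and untreated values that of pools 1, 2 and 3.

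Complex I takes electrons from NADH, passes them along iron-sulfur clusters to ubiquinone and pumps protons out of the matrix. It is L-shaped, with a matrix arm that holds the flavin and the clusters and a membrane arm that holds the pumps. The core subunits of the matrix arm are nuclear-encoded and those of the membrane arm are encoded by mitochondrial DNA, which is not analysed here. Accessory subunits surround the core, and assembly factors help to build the enzyme without staying in it. Quiescent stem cells are known to rely less on respiration than the progenitors they give rise to.

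No complex I gene passed the test between RUX-treated and untreated pools. Of the 43 members tested, 0 had an adjusted p under 0.05 (edgeR quasi-likelihood test with Benjamini-Hochberg adjustment over 13411 genes), against 0.0% of all tested genes. At an unadjusted p under 0.05 the count was again 0 of 43, against 1.89% of all tested genes, and DESeq2 and limma-voom also gave 0 at either level. The counts were likewise 0 with RUX pool 4 and untreated pool 3 left out together. The 3 RUX values and the 3 untreated values overlapped for each of the 43 members, while 6.24% of all tested genes had groups without overlap. Fold changes ran from 0.874 for the assembly factor gene Ndufaf4 to 1.19 for the membrane arm subunit gene Ndufa13. The 95% interval of the fold change stayed within 1.5-fold in either direction for 42 of 43 members, with Ndufa13 as the exception (0.904- to 1.56-fold), and within 2-fold for all 43. Over all tested genes these shares were 56.8% and 80.9%. The median level was 201 CPM per kilobase of exon for members and 7.55 for all tested genes. Interval width also depends on read count, and no share over genes of like level was computed.

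**Figure D1:**
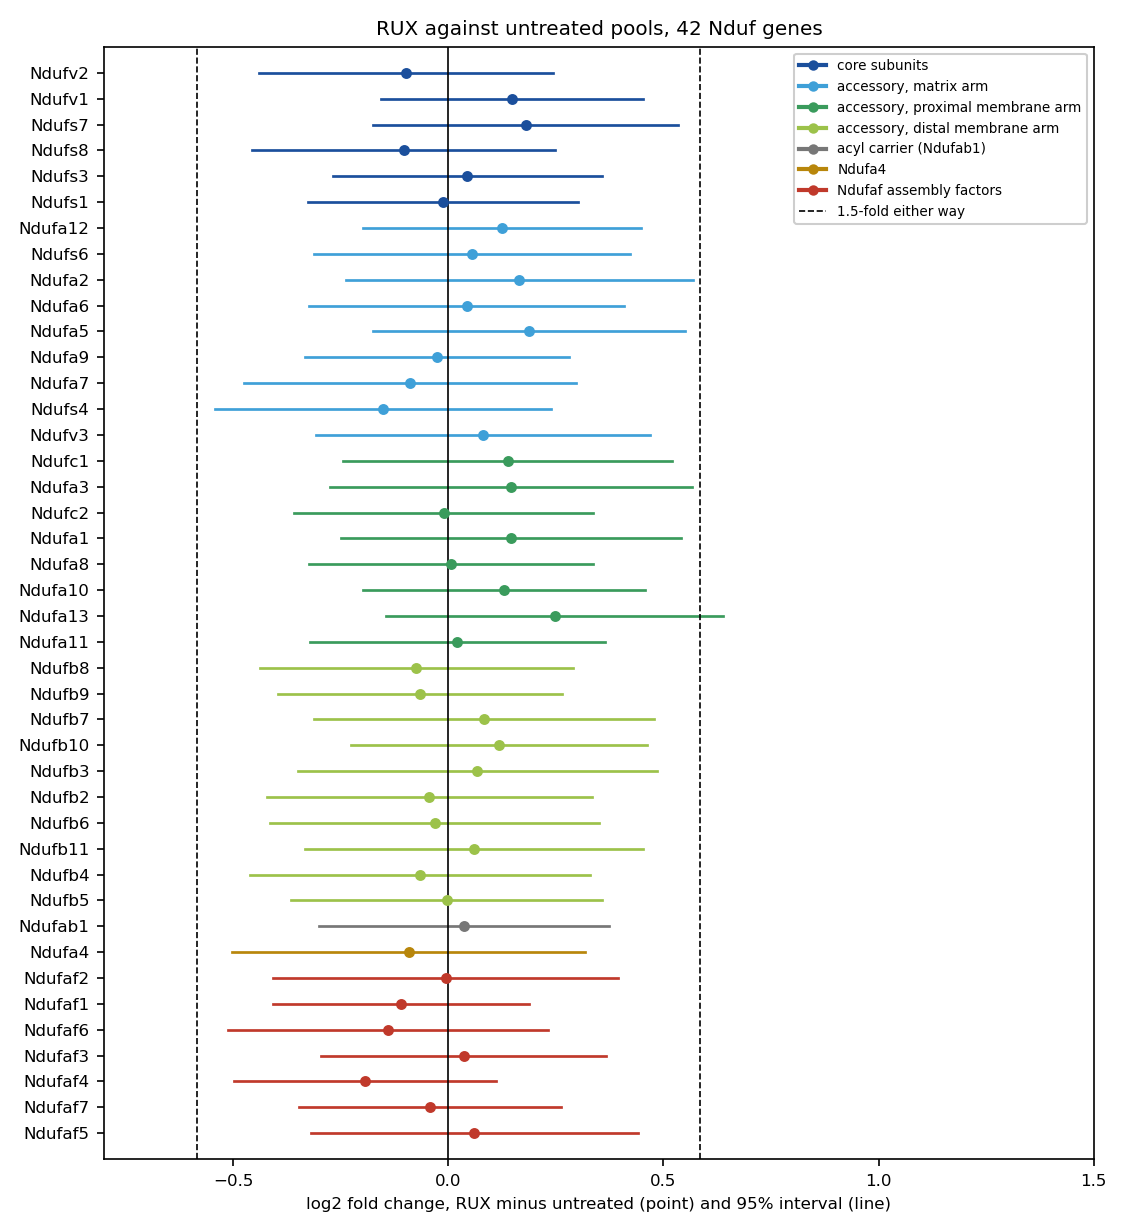
Log2 fold change of 42 tested members, RUX minus untreated, as a point with its 95% interval as a line, coloured by role; dashed lines mark 1.5-fold in either direction. All 42 intervals include 0, and only that of Ndufa13 passes a dashed line.

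Subunits and assembly factors lay on opposite sides of 0 by margins smaller than the spread between pools. Of 35 tested subunits, 22 lay above 0 and 13 below, and the median log2 fold change was 0.04. Of 7 assembly factors, 2 were positive and 5 negative, with a median of −0.04. With Ndufaf8, listed under an older symbol (log2 fold change 0.12), counted in, 3 of 8 were positive and the median was −0.03. Over all tested genes the median was −0.004, with 49.2% positive. The SD of the per-pool means within a group was 0.19 for subunits and 0.11 for assembly factors on the log2 scale, larger than either median. The subunit median was −0.08 without RUX pool 4 and 0.16 without untreated pool 3. It was −0.01 without untreated pool 1, 0.01 without untreated pool 2, 0.10 without RUX pool 5 and 0.09 without RUX pool 6. The assembly factor median was −0.08 without untreated pool 2 and −0.07 without RUX pool 5, and it ranged from −0.08 to −0.03 over all settings. Without RUX pool 4 and untreated pool 3 together the medians were 0.04 for subunits and −0.08 for assembly factors.

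The libraries held 46027491, 47730958 and 48747137 counted read pairs in the RUX pools, against 27354768, 38691826 and 37360937 in the untreated pools. Kit, the sort antigen gene, measured 295, 412 and 416 CPM in the RUX pools, against 409, 471 and 196 CPM in the untreated pools. Of the 9 T and NK cell markers, Cd3e, Cd8a, Cd4, Cd3d, Cd3g and Ncr1 each stayed under 3 CPM in every pool. Klrb1c measured 4.77, 2.62 and 1.92 CPM in the RUX pools, against 2.64, 3.38 and 1.98 CPM in the untreated pools. Lck measured 16.1, 21.4 and 15.9 CPM in the RUX pools, against 23.4, 22.2 and 24.9 CPM in the untreated pools. Nkg7 measured 403, 295 and 212 CPM in the RUX pools, against 220.0, 187 and 346 CPM in the untreated pools. Nkg7 was highest in RUX pool 4 and untreated pool 3. RUX pool 4 (19.5) and untreated pool 3 (24.1) stood apart from the other 4 pools (−16.5 to −3.04) on the first principal component, which held 39.7% of the variance. Both groups hold 1 of these pools.

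The 7 core subunits, which carry the flavin, the clusters and part of the quinone site, had log2 fold changes of −0.10 to 0.18. Ndufv1, whose product holds the flavin and binds NADH (chromosome 19, 4007499 to 4012755, mm10), measured 317, 335 and 351 CPM in the RUX pools, against 268, 317 and 319.9 CPM in the untreated pools. Untreated pool 1 was the low value, and the other 5 pools lay close together. Its log2 fold change was 0.15 ± 0.14 (SE), with an unadjusted p of 0.315. Ndufv2, an iron-sulfur protein beside Ndufv1, measured 398, 342 and 335 CPM in the RUX pools, against 408, 314 and 429 CPM in the untreated pools, with pools of both groups at either end. Ndufs1, the largest core subunit and carrier of several clusters (chromosome 1, 63143592 to 63176822), measured 164, 182 and 202 CPM in the RUX pools, against 199, 189 and 165 CPM in the untreated pools. RUX pool 4 and untreated pool 3 were its lowest pools, the reverse of most other members.

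Ndufs7, which lines the ubiquinone site, measured 178, 146 and 153 CPM in the RUX pools, against 113, 142 and 167 CPM in the untreated pools, a log2 fold change of 0.18 ± 0.16 (SE; unadjusted p = 0.294). Untreated pool 1 was the lowest and RUX pool 4 the highest, and the groups overlapped. Ndufs3, a scaffold of the matrix arm, measured 120.3, 108 and 106 CPM in the RUX pools, against 102, 98.9 and 124 CPM in the untreated pools. Ndufs8, which carries clusters next to the quinone site, measured 174, 153 and 161 CPM in the RUX pools, against 177, 138 and 209.6 CPM in the untreated pools, a log2 fold change of −0.10 ± 0.16 (SE; unadjusted p = 0.537). Untreated pool 3 was the highest and untreated pool 2 the lowest of the Ndufs8 values, so the untreated pools spanned all RUX values.

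Accessory subunits of the matrix arm lay above 0 for 6 and below 0 for 3 of 9 tested genes, and the median log2 fold change was 0.06. Ndufa5, an early-joining subunit of the quinone module, measured 155, 121 and 114 CPM in the RUX pools, against 93.2, 120.5 and 129 CPM in the untreated pools. Its log2 fold change of 0.19 ± 0.17 (SE; unadjusted p = 0.286) was the second highest of all members. Ndufa2, a small thioredoxin-like subunit, measured 221, 158 and 139 CPM in the RUX pools, against 128, 156 and 179 CPM in the untreated pools, a log2 fold change of 0.17 ± 0.19 (SE; unadjusted p = 0.393). RUX pool 4 was the highest and untreated pool 1 the lowest in both genes. Ndufs4, whose loss causes a Leigh-like encephalopathy in mice, measured 143, 121 and 104 CPM in the RUX pools, against 137, 106 and 167 CPM in the untreated pools. That gave the lowest log2 fold change of all subunits, −0.15 ± 0.18 (SE; unadjusted p = 0.415), with untreated pool 3 highest and RUX pool 6 lowest.

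Ndufs6, a zinc-binding subunit, measured 214, 162 and 154 CPM in the RUX pools, against 150.3, 158 and 203 CPM in the untreated pools. Ndufa9, a relative of the short-chain dehydrogenases, measured 268, 271 and 276 CPM in the RUX pools, against 301, 241 and 288 CPM in the untreated pools. Ndufa6, which binds the acyl carrier protein, measured 163, 115 and 110.4 CPM in the RUX pools, against 115, 120.0 and 142 CPM in the untreated pools. In Ndufs6 and Ndufa6 RUX pool 4 was the highest, and the 3 RUX values of Ndufa9 lay within the range of its untreated values. Ndufa12, which takes the place of the assembly factor Ndufaf2, measured 219, 179 and 170.0 CPM in the RUX pools, against 162, 165 and 193 CPM in the untreated pools. The log2 fold changes of these 4 genes were 0.06, −0.03, 0.04 and 0.12, and those of Ndufa7 and Ndufv3 −0.09 and 0.08.

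Of the 8 tested accessory subunits of the proximal membrane arm, 7 were positive and 1 negative, with a median of 0.13, the highest of the role groups with more than 1 gene. Log2(CPM + 1) deviations from each gene's own 6-pool mean averaged 0.31, −0.04 and −0.11 in the RUX pools. They averaged −0.20, −0.15 and 0.20 in the untreated pools, so the groups overlapped. Ndufa13, also known for a role in cell death and STAT3 binding (chromosome 8, 69894182 to 69902558), measured 167, 121 and 112 CPM in the RUX pools, against 91.6, 114 and 132 CPM in the untreated pools. RUX pool 4 stood above the rest, and the other 2 RUX pools lay within the untreated range. Its log2 fold change was 0.25 ± 0.18 (SE; unadjusted p = 0.197), 0.06 without RUX pool 4, 0.12 without untreated pool 1, 0.38 without untreated pool 3 and 0.18 without RUX pool 4 and untreated pool 3 together. In the deposited annotation 344 of its 1249 exon bases overlap Tssk6 on the opposite strand, and read pairs there could not be assigned to either gene. Tssk6 itself held 105, 135 and 180 read pairs in the RUX pools, against 69, 125 and 126 in the untreated pools.

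Ndufa1, an X-linked small membrane subunit, measured 209.8, 155 and 129.5 CPM in the RUX pools, against 129, 145 and 173 CPM in the untreated pools. Ndufa3, the shortest member by exon length, measured 197, 139.9 and 123 CPM in the RUX pools, against 113, 134 and 169.9 CPM in the untreated pools and had the largest SE of all members, at 0.15 ± 0.20. Ndufa8, a subunit of the intermembrane space face, measured 207, 177 and 168 CPM in the RUX pools, against 184, 158 and 209 CPM in the untreated pools. RUX pool 4 and untreated pool 3 were the highest 2 pools in all 3 genes, and the groups overlapped. Ndufa10, a nucleoside kinase relative, measured 235, 209.7 and 239 CPM in the RUX pools, against 185, 194 and 246 CPM in the untreated pools, with a log2 fold change of 0.13. Those of Ndufa11, Ndufc1 and Ndufc2 were 0.02, 0.14 and −0.01.

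Ndufs5, the remaining proximal subunit (chromosome 4, 123712710 to 123718186), had 0 counts in all 6 pools. Of its 509 exon bases, 484 are also listed as exon of BC002163 on the same strand. Read pairs that overlap more than 1 gene are left out by the default of the counting tool, so the 0 sets no limit on the level of Ndufs5. BC002163 also has an exon on chromosome 16 and held 591, 486 and 464 read pairs in the RUX pools, against 243, 435 and 431 in the untreated pools. Ndufa4l2 had 1, 0 and 0 read pairs in the RUX pools, against 0, 0 and 0 in the untreated pools, at or under the floor of 3 counts. With Ndufs5 it made up the 2 members not tested.

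Accessory subunits of the distal membrane arm, the end that holds the last proton pumps, lay above 0 for 4 and below 0 for 6 of 10 tested genes. Log2 fold changes ran from −0.07 for Ndufb8 to 0.12 for Ndufb10, with a median of −0.02. Ndufb8, a subunit widely used as a protein marker of assembled complex I, measured 414, 354 and 307 CPM in the RUX pools, against 375, 312 and 445 CPM in the untreated pools. Its value was highest in untreated pool 3 and lowest in RUX pool 6. Ndufb10 measured 252, 211 and 185 CPM in the RUX pools, against 179, 189 and 229 CPM in the untreated pools, with RUX pool 4 highest and untreated pool 1 lowest. Ndufb11, an X-linked subunit linked in humans to sideroblastic anemia, measured 215, 166 and 144 CPM in the RUX pools, against 152, 146 and 206 CPM in the untreated pools. Ndufb9, a binding partner of the acyl carrier protein, measured 389.8, 339 and 327 CPM in the RUX pools, against 377, 314 and 414 CPM in the untreated pools. Both were highest in RUX pool 4 or untreated pool 3. Ndufab1, the mitochondrial acyl carrier protein found in both arms, measured 204, 158 and 159 CPM in the RUX pools, against 156, 158 and 193 CPM in the untreated pools, a log2 fold change of 0.04 ± 0.16 (SE).

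Ndufa4, first named as a complex I subunit and now counted with cytochrome c oxidase, was the most abundant member. It measured 777, 572 and 489.8 CPM in the RUX pools, against 655, 535 and 769.7 CPM in the untreated pools, a log2 fold change of −0.09 ± 0.19 (SE; unadjusted p = 0.636). RUX pool 4 and untreated pool 3 nearly coincided at the top, and RUX pool 6 was lowest.

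Of the assembly factors, Ndufaf4 had the smallest unadjusted p of all 43 members, on the lower side. It works with Ndufaf3 on the quinone module and lies at chromosome 4, 24898083 to 24905001. It measured 97.0, 92.4 and 93.7 CPM in the RUX pools, against 119, 93.6 and 111 CPM in the untreated pools, a log2 fold change of −0.19 ± 0.14 (SE; unadjusted p = 0.194, adjusted p = 1). The RUX pools were tightly grouped, 2 untreated pools lay above them and untreated pool 2 lay among them. Its partner Ndufaf3 measured 33.8, 28.5 and 29.9 CPM in the RUX pools, against 27.2, 29.7 and 33.0 CPM in the untreated pools, a log2 fold change of 0.04.

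Ndufaf1, part of the membrane-arm assembly complex that also holds Ecsit, Acad9 and Tmem126b, measured 57.2, 65.2 and 62.4 CPM in the RUX pools, against 71.3, 65.8 and 62.6 CPM in the untreated pools, a log2 fold change of −0.11 ± 0.14 (SE; unadjusted p = 0.437). Ndufaf6, a factor needed for the early membrane arm, measured 39.7, 38.7 and 32.2 CPM in the RUX pools, against 43.8, 31.7 and 46.3 CPM in the untreated pools, a log2 fold change of −0.14 ± 0.17 (SE; unadjusted p = 0.429). In both genes untreated pool 1 lay above all RUX pools, while untreated pool 3 lay among the RUX values in Ndufaf1 and untreated pool 2 just below them in Ndufaf6. Ndufaf2, a paralog of Ndufa12 that acts late in assembly, measured 62.0, 43.4 and 39.8 CPM in the RUX pools, against 45.6, 42.7 and 57.5 CPM in the untreated pools, with RUX pool 4 and untreated pool 3 high. Ndufaf5 and Ndufaf7 modify arginines of core subunits during assembly. Ndufaf5 measured 23.96, 20.1 and 19.9 CPM in the RUX pools, against 23.0, 16.4 and 21.9 CPM in the untreated pools, and Ndufaf7 53.5, 57.6 and 54.6 CPM in the RUX pools, against 63.6, 54.4 and 52.8 CPM in the untreated pools. Their log2 fold changes were 0.06 and −0.04. Ndufaf8, the partner of Ndufaf5, is listed in the table under its older symbol 1810043H04Rik and so falls outside the rule; it measured 46.7, 38.2 and 27.2 CPM in the RUX pools, against 27.2, 37.6 and 38.4 CPM in the untreated pools.

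Levels per exon length were higher for most subunits than for the assembly factors. The median subunit level, in CPM per kilobase of exon, was 255, 209 and 208 in the RUX pools, against 207, 198 and 241 in the untreated pools. For assembly factors it was 31.7, 26.7 and 28.0 in the RUX pools, against 32.9, 27.9 and 30.9 in the untreated pools. Mean levels over the 6 pools ran from 40.7 (Ndufa11) to 574 CPM per kilobase (Ndufb8) among subunits and from 7.64 (Ndufaf5) to 71.3 (Ndufaf2) among assembly factors. The 3 subunits below the level of Ndufaf2 were Ndufa11, Ndufv3 and Ndufs1. Ndufa4 stood above all subunits, with 1579, 1162 and 995 CPM per kilobase in the RUX pools, against 1331, 1088 and 1564 in the untreated pools.

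The genes with the highest and the lowest mean level in each role group were the same in RUX and in untreated pools. Among core subunits the highest was Ndufv2, with 243, 209 and 205 CPM per kilobase in the RUX pools, against 249.3, 192 and 262 in the untreated pools. The lowest was Ndufs1, with 56.1, 62.1 and 69.2 CPM per kilobase in the RUX pools, against 68.1, 64.6 and 56.3 in the untreated pools. All 6 pools of Ndufv2 lay above all 6 of Ndufs1. Among matrix arm accessory subunits the highest was Ndufa12, with 389.8, 319 and 303 CPM per kilobase in the RUX pools, against 289.5, 294 and 344 in the untreated pools. The lowest was Ndufv3, with 72.6, 56.3 and 55.1 CPM per kilobase in the RUX pools, against 48.8, 51.5 and 73.7 in the untreated pools. These gaps were wider than any difference between the groups. The genes of each pair were picked as extremes over these same pools, so the gaps are a description only. In the proximal membrane arm the highest was Ndufc1, with 537, 398 and 403 CPM per kilobase in the RUX pools, against 342, 374 and 499.7 in the untreated pools. Ndufa3 came close, with a mean of 419 against 426 for Ndufc1, and was the higher gene in RUX pools 4 and 5 and untreated pool 2. The lowest was Ndufa11, with 45.9, 39.3 and 37.9 CPM per kilobase in the RUX pools, against 38.3, 34.4 and 48.5 in the untreated pools. All 6 pools of Ndufc1 lay above all 6 of Ndufa11. In the distal arm Ndufb8 had 647, 552 and 479 CPM per kilobase in the RUX pools, against 586, 487 and 694 in the untreated pools. Ndufb5, the lowest, had 207, 168 and 158 CPM per kilobase in the RUX pools, against 174, 147 and 214 in the untreated pools. The length used is the union of all annotated exons of a gene, 2661 bases for Ndufa11 and 414 for Ndufc1, so a gene with long minor transcripts reads low on this scale. In bulk pools, more of the cells that transcribe a gene and more RNA per cell cannot be told apart.

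**Figure D2:**
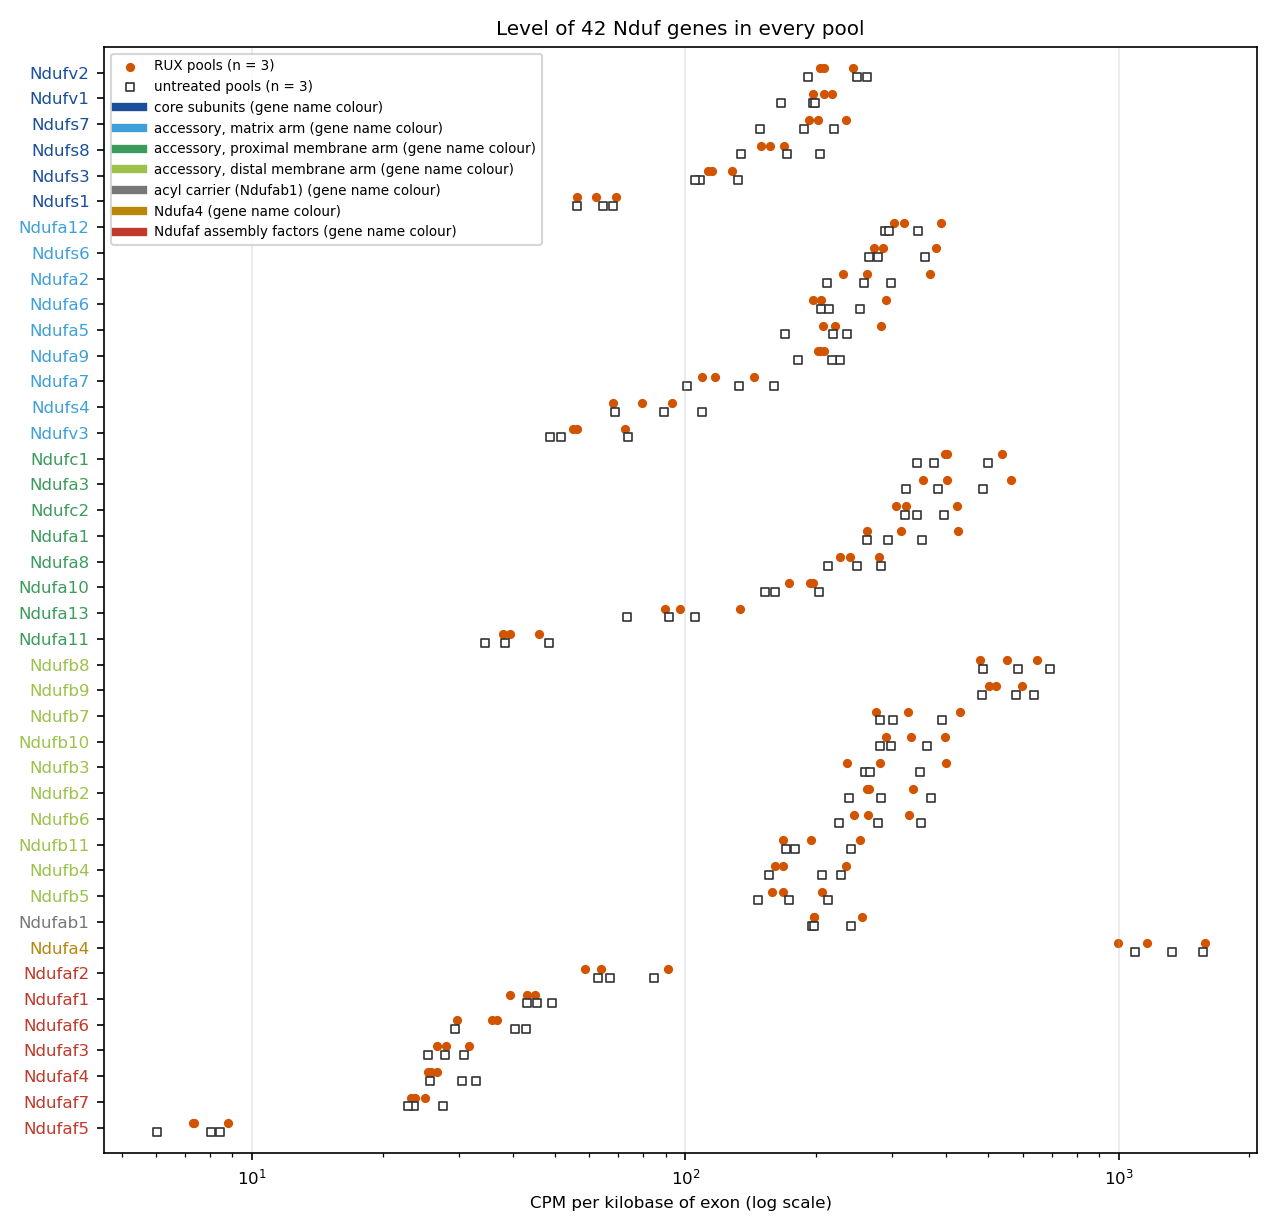
Level of 42 tested members in every pool, in CPM per kilobase of exon on a log axis, ordered by role and mean level; filled circles are the 3 RUX pools and open squares the 3 untreated pools. The groups overlap for every gene shown, and the 7 assembly factors lie between 7.64 and 71.3 CPM per kilobase on average, under most subunits.

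The members varied together from pool to pool, in a pattern that crossed the groups. Mean deviations of the 35 subunits from each gene's own mean, on the log2(CPM + 1) scale, were 0.24, −0.05 and −0.12 in the RUX pools, against −0.11, −0.16 and 0.20 in the untreated pools. RUX pool 4 and untreated pool 3 were high, and the other 4 pools were low. The number of subunits above their own mean was 32, 5 and 6 in the RUX pools, against 10, 2 and 34 in the untreated pools. Summed over the 35 subunits, the CPM were 7491, 6216 and 5967 in the RUX pools, against 6070.0, 5781 and 7370.1 in the untreated pools. RUX pool 4 and untreated pool 3 were the highest pools for 29 of 35 subunits, for 2 of 7 assembly factors and for 15.3% of all tested genes. Assembly factors had mean deviations of 0.07, −0.04 and −0.11 in the RUX pools, against 0.10, −0.12 and 0.11 in the untreated pools. Untreated pool 1 was thus high on average for assembly factors, with 5 of 7 above their own mean, and low for subunits. With Ndufaf8, listed as 1810043H04Rik, counted in, the mean deviation of assembly factors in that pool was 0.04.

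**Figure D3:**
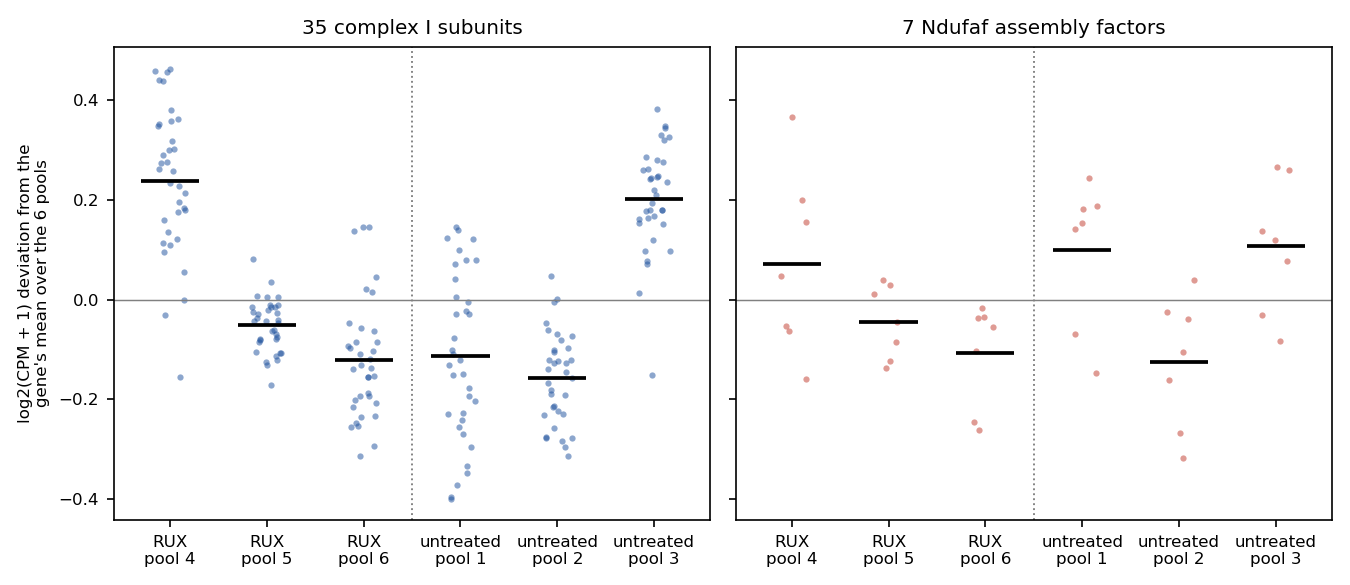
Each gene's log2(CPM + 1) minus its own 6-pool mean, for 35 subunits (left) and 7 assembly factors (right); points are genes, black bars their mean in a pool, and the dotted line parts RUX from untreated pools. Subunit means are 0.24 in RUX pool 4 and 0.20 in untreated pool 3 and −0.16 to −0.05 in the other 4 pools.

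The same 2 pools were high for short genes in general. Subunit genes are short, with a median of 739 exon bases, while assembly factor genes had a median of 1451. All tested genes under 1000 bases, 1101 in number, had mean deviations of 0.22, −0.05 and −0.16 in the RUX pools, against −0.10, −0.09 and 0.18 in the untreated pools. For 56.6% of them RUX pool 4 and untreated pool 3 were the highest pools. The 23 subunits under 1000 bases had mean deviations of 0.30, −0.06 and −0.16 in the RUX pools, against −0.14, −0.15 and 0.21 in the untreated pools, and the 12 longer subunits 0.12, −0.04 and −0.04 in the RUX pools, against −0.05, −0.16 and 0.18 in the untreated pools. Across the 43 members, Spearman's rho of the deviation with exon length was −0.71 in RUX pool 4 and −0.35 in untreated pool 3, and 0.07 to 0.54 in the other 4 pools. The members of one pool share its library and depth, and the rho is given as a description.

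Removing the length trend of all tested genes from each pool left smaller subunit deviations of 0.05, −0.001 and 0.01 in the RUX pools, against −0.04, −0.07 and 0.05 in the untreated pools. Their range over the pools was 0.12, against 0.39 before. For assembly factors the values became 0.01, −0.03 and −0.04 in the RUX pools, against 0.11, −0.08 and 0.03 in the untreated pools, with untreated pool 1 highest. With the length trend in the fit, 0 of 43 members had an adjusted p under 0.05 and the subunit median was 0.03.

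**Figure D4:**
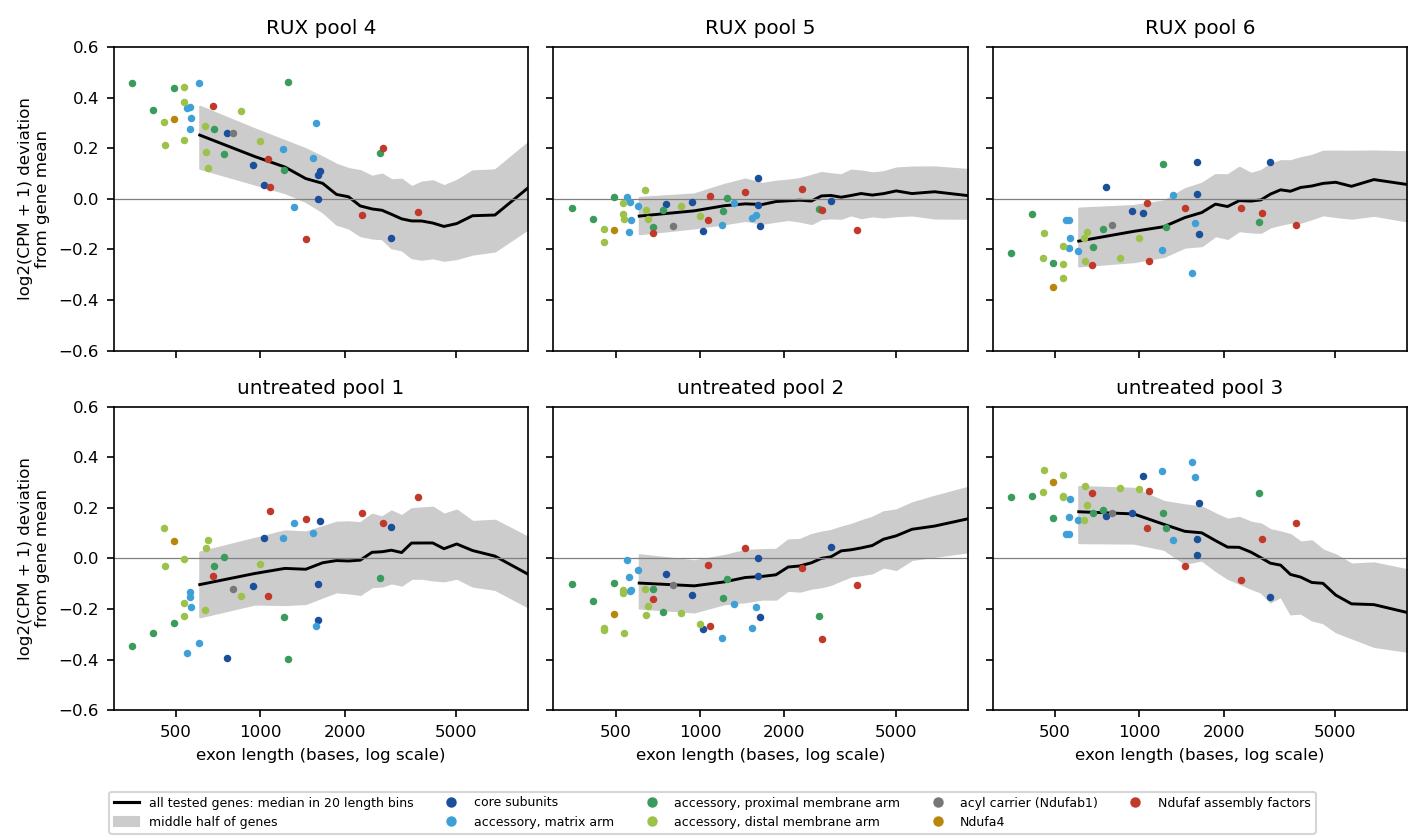
Deviation of log2(CPM + 1) from the gene mean against exon length (log axis), 1 panel a pool; the black line and grey band give the median and the interquartile range of all tested genes in 20 length bins, and points are the 43 members by role. Short members lie above 0 in RUX pool 4 and untreated pool 3, and mostly below 0 in the other 4 pools, near the line of all genes.

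Eosinophil and neutrophil markers were, in sum, also highest in those 2 pools, while single neutrophil genes were split in untreated pool 2. Eosinophil markers (7 of 8 tested, 0 of 8 at 0 in all pools) had summed CPM of 228, 91.3 and 49.5 in the RUX pools, against 45.6, 40.1 and 237 in the untreated pools, most of it from Prg2. Neutrophil lineage markers (12 of 12 tested, including Elane and Mpo) had summed CPM of 12241, 10808 and 8485 in the RUX pools, against 7465, 6942 and 15954 in the untreated pools. Most of that sum came from Mpo. All 12 neutrophil genes and all 7 tested eosinophil genes lay above their own mean in RUX pool 4 and untreated pool 3. Mean deviations of the neutrophil genes were 0.64, 0.11 and −0.94 in the RUX pools, against −1.59, 0.56 and 1.22 in the untreated pools. Untreated pool 2, where most subunits were low, thus had 8 of 12 neutrophil genes above their own mean (S100a8, S100a9, Ltf, Camp, Ngp, Lcn2, Mmp8 and Retnlg), and Elane, Mpo, Prtn3 and Ctsg were lowest there. S100a8 measured 497, 254 and 111 CPM in the RUX pools, against 54.5, 609 and 739 CPM in the untreated pools. Basophil and mast cell markers had mean deviations of 0.47, 0.19 and −0.16 in RUX pools, against −0.33, −0.48 and 0.31 in untreated pools. In the same order, monocyte and dendritic markers had 0.11, 0.03 and −0.44, against 0.10, −0.12 and 0.32. Megakaryocyte markers had 0.22, 0.11 and −0.03, against −0.24, −0.06 and 0.01. T and NK markers had 0.13, 0.04 and −0.25, against −0.05, 0.01 and 0.13. Erythroid markers had −0.27, −0.10 and 0.43, against −0.06, 0.14 and −0.13. Lymphoid markers had −0.0003, 0.12 and −0.31, against 0.11, 0.15 and −0.07. Stem cell markers had 0.14, 0.19 and 0.03, against 0.07, 0.01 and −0.43. Kit was lowest in untreated pool 3 and RUX pool 4, as given above. The part of any of these cell types in the complex I pattern was not tested.

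No gene of the other pathway lists passed the test. Of 14 assembly factors with other names, 7 were positive and 7 negative, with a median of −0.02 and 0 passing the test. Tmem70, which helps to assemble complex I and ATP synthase, measured 76.2, 81.8 and 84.2 CPM in the RUX pools, against 125, 83.1 and 97.6 CPM in the untreated pools, a log2 fold change of −0.34 ± 0.16 (SE; unadjusted p = 0.0579, adjusted p = 1). RUX pools were tightly grouped and untreated pool 1 was the highest. Tmem126b, of the complex that holds Ndufaf1, measured 16.8, 18.2 and 14.9 CPM in the RUX pools, against 25.3, 15.7 and 18.3 CPM in the untreated pools. Nubpl, which delivers iron-sulfur clusters, averaged 25.1 ± 2.89 CPM in RUX pools and 21.9 ± 1.82 CPM in untreated pools (SD, n = 3 each).

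Regulators of nuclear respiratory genes lay above 0 for 4 and below 0 for 8 of 12 genes, with a median log2 fold change of −0.07. Ppargc1a, a coactivator of mitochondrial biogenesis, had few reads, with 13, 3 and 12 read pairs in the RUX pools, against 18, 33 and 17 in the untreated pools. It did not overlap between the groups (log2 fold change −1.70 ± 0.62, SE; unadjusted p = 0.0161, adjusted p = 1). Of the 12 regulators, 1 had groups without overlap, against 6.24% of all tested genes. RUX pool 5 stood at the floor of 3 counts for Ppargc1a. The transcription factor genes Nrf1 and Gabpa had log2 fold changes of −0.03 and −0.12, and Gabpb1, which encodes the partner subunit of Gabpa, −0.23 (unadjusted p = 0.156). Tfb1m, an rRNA methyltransferase of mitochondria, had −0.18. Of 13 genes that track mitochondrial content, 8 were positive and 5 negative, with a median of 0.07 and 0 passing the test. The phosphate carrier gene Slc25a3, the import receptor gene Tomm20 and the porin gene Vdac1 had 0.17, −0.16 and 0.15.

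Promoters were examined because the subunits varied together. RefSeq promoter windows of GRCm38.p6, 250 bases before to 50 after the start site, matched 39 of 45 members in 41 windows. NRF1 and the ETS factor GABP are known activators of nuclear respiratory genes, and YY1 is another factor of such promoters. The NRF1 motif, searched as GCGCA and GCGC separated by any 1 base and, like all motifs, on both strands, was present in 24.4% of member windows against 4.6% of all 32851 windows. For the ETS motif CCGGAAG the shares were 12.2% and 8.86%, and for the YY1 motif AAGATGGCG 12.2% and 1.4%. For GGGCGG, a box bound by SP1, they were 51.2% and 35.7%. CCAAT stood at 31.7% and 37.4%, TATAAA at 12.2% and 13.6%, and TCAAGGTCA, an element of the estrogen-related receptors, at 0% and 0.42%. The 32851 windows include those of genes not tested here, and no share over the tested genes was computed. In Ndufs3 a GGGCGG match begins 31 bases before the start site and shares 2 bases with an ETS match. Members with an NRF1 match were Ndufa5, Ndufa6, Ndufa8, Ndufa11, Ndufb4, Ndufs5, Ndufs6, Ndufaf4 and Ndufaf5, of which 8 were tested. The 5 YY1 matches, in Ndufa9, Ndufc1, Ndufs4, Ndufs6 and Ndufs7, began 23 to 36 bases after the start site.

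Stretches that end before the start site are shown for a distal subunit, an assembly factor and a core subunit, 5′ to 3′ on the gene's strand. Capitals mark the NRF1 motif in Ndufb4 and Ndufaf4 and the ETS motif in Ndufs3. The Ndufb4 stretch (chr16:37654369-37654568, minus strand, GRCm38.p6) holds 3 matches, the Ndufaf4 stretch (chr4:24897933-24898012, plus strand) 1 and the Ndufs3 stretch (chr2:90904722-90904781, minus strand) 1. The Ndufs3 window holds a second ETS match after the start site, outside the stretch shown.
Ndufb4: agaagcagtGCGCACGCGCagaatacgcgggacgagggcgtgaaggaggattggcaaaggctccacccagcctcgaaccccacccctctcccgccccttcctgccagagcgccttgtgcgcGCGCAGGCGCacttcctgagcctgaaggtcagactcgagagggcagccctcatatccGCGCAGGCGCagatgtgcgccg
Ndufaf4: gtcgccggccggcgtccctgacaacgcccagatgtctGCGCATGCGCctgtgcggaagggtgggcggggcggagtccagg
Ndufs3: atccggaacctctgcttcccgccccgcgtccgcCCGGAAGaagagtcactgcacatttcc

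Mean deviations of members with and without an NRF1 match had the same sign in every pool. The 8 tested members with a match had mean deviations of 0.23, −0.08 and −0.13 in the RUX pools, against −0.03, −0.17 and 0.18 in the untreated pools. The 30 tested members with a promoter window and no match had 0.23, −0.05 and −0.13 in the RUX pools, against −0.10, −0.16 and 0.21 in the untreated pools. Ndufb4, with 3 matches, measured 106, 76.4 and 73.1 CPM in the RUX pools, against 93.8, 70.6 and 104 CPM in the untreated pools, a log2 fold change of −0.07 ± 0.18 (SE). A match describes the letters in the window and not a bound site.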

How the data were processed

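RNA of Lin-CD117+ bone marrow cells was made into libraries with the SMART-Seq mRNA LP kit, per the labels' protocols, and aligned with STAR to mm10, per the submitters' processing notes (STAR's version: not given in the sources used here). Then the authors counted read pairs per gene with featureCounts 2.0.3 over UCSC mm10 exons, per the file headers, and left the counts unnormalized. No option on strand, multi-mapping or overlap appears in that command, so read pairs in several places or genes are left out by default and genes with near-identical copies (Ndufb4, Ndufab1 and others) are uncertain. Other values in the deposited table are exon lengths in bases.

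Columns were assigned to pools through the library names in the labels. edgeR 4.0.16 in R 4.3.3 kept 13411 of 24421 genes (filterByExpr), scaled by TMM, and tested treatment alone by the two-sided quasi-likelihood test with Benjamini-Hochberg adjustment over all tested genes; checked on simulated data. CPM use TMM-scaled library sizes over the tested genes. Fold changes are RUX over untreated. The SE is the absolute log2 fold change divided by the root of its F statistic, and intervals are 95%. The pools came from different mice, but p-values measure only the spread between these pools. Read pairs are not independent molecules, so the floor of 3 counts (0.0595 to 0.107 CPM) covers counting error only.

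Subunits were split by role from known structure. Values are given for the 5 members with the lowest unadjusted p on either side of 0, core subunits (1 is not reported here by name or drawn in the plots by gene), Ndufaf genes, Ndufa4 and Ndufa4l2, the extremes per length of each role group, and up to 3 genes of each other list; Ndufs6, Ndufa1, Ndufa3, Ndufa6, Ndufa8, Ndufa9, Ndufa10, Ndufb4, Ndufb9, Ndufb10, Ndufb11, Ndufab1, Nrf1 and Gabpa were added after their values were seen. Of genes listed by current symbol, Ndufaf8, Dmac1 and Dmac2 were found under older symbols. Members, lists and motifs were chosen with earlier results of these data known. Alternatives were other scalings and filters, robust fitting, limma-voom 3.58.1 (also weighted by library quality), DESeq2 1.42.0, a length trend (lowess span 0.3), a stricter threshold, other memberships and each pool left out. Removal of untreated pool 3 and RUX pool 4 together, and of the length trend from per-pool deviations, was chosen after seeing the data.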

Additional observations from a re-analysis of the deposited data

How the results depend on the processing

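The count of members with an adjusted p under 0.05 was 0 in the edgeR fit, in all 16 alternative fits and at a threshold of 0.01; at an unadjusted p under 0.05 it was also 0 in all of them. The count over all tested genes was 0, but 14 with no low-count filter and 1 with limma-voom quality weights, none of them a member; the cause was not tested. Medians moved by less than the SD between pools: −0.08 to 0.14 for all members, −0.08 to 0.16 for subunits and −0.08 to −0.03 for assembly factors over all settings. The median of all members was −0.002 with quality weights, −0.02 without untreated pool 1 and −0.02 without untreated pool 2. With untreated pool 3 and RUX pool 4 left out together it was 0.02, and 0 members were called. Of 43 members, 12 kept the sign of their fold change in every alternative, and 6 changed it in a setting that keeps all 6 pools. Leaving out RUX pool 4 changed the sign of 17 members and leaving out untreated pool 3 that of 13. No paired analysis was possible because the pools of the 2 groups share no numbers in the labels. With 3 pools a group, the members' 95% intervals reached down to 0.687-fold and up to 1.56-fold.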
